A study of Mus musculus with 4 samples.

Results

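Open chromatin was mapped by ATAC-seq, which tags accessible DNA with adapters carried by the Tn5 transposase, and the regions described here lay far from any protein-coding gene and were called in every library. Overlapping peaks of the 4 deposited lists (1 bp or more) were joined into regions, and a region was kept when all 4 libraries had a peak in it, its midpoint lay outside every protein-coding gene and the nearest protein-coding gene end was more than 100 kb away on chromosomes 1 to 19. The rule left 2592 shared desert regions, which were 4.58% of the 56633 regions shared by all 4 libraries and came from 117196 regions called in any library. These regions were chosen by their peak calls, so their presence in every library is a description and carries no test. The rule also used position, so the distances given below are a description as well. Strength entered the rule only through the authors' peak call in each list, and width and sequence were not used.

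The study profiled Lgr5-EGFP+/CD24- stem cells of the small intestine (SISC) and Lgr5-EGFP+ stem cells of the large intestine (LISC), with 2 libraries each. All mice carried the Lgr5-EGFP-IRES-creERT2 allele, a reporter driven from the Lgr5 locus, were 6 to 12 weeks old and received no treatment. The labels place the small-intestinal tissue by its distance from pylorus and cecum, and the large-intestinal tissue ran from cecum to rectum. The labels name the CD24 gate for SISC only, and they leave unsaid whether each library had its own animals, so the spread within a group may be technical.

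Gene deserts are long stretches without protein-coding genes. They often flank regulators of development and growth, and enhancers inside them can reach a promoter far away by looping of the chromatin fibre within a topological domain. An open region in a desert may be such an enhancer, a binding site of the architectural protein CTCF, or the promoter of a non-coding RNA. ATAC-seq shows that the DNA is accessible and does not show which gene, if any, the region serves, so flanking genes are named below by position only.

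Some of these regions overlay the start of a long non-coding RNA (lncRNA), and the promoter windows of 6 such lncRNAs, 250 bases before to 50 bases after the RefSeq start in the GRCm38.p6 assembly, show the sequence at these starts. The windows lay wholly inside the shared region except that of Lncpint, of which 222 of 300 bases did. Gm26901 on the minus strand (chr1:7398047-7398346) and 8430430B14Rik on the plus strand (chr17:83998302-83998601) lay under the highest ranked shared desert regions that held such a window. Gm32624 (plus strand, chr16:86816659-86816958) and 1700007F19Rik (minus strand, chr3:58163758-58164057) lay under regions with a wide margin towards SISC, and Gm30624 (plus strand, chr10:111684784-111685083) under a region with a wide margin towards LISC. Lncpint, a p53-responsive lncRNA (minus strand, chr6:31218425-31218724), belongs to the desert with most shared regions. Its shared region ends at position 31218646, so the printed Lncpint sequence begins outside it and the marked GATA letters lie at that edge. Capitals mark a motif match in either orientation: the GATA letters AGATAA in Gm32624 and Lncpint, the HNF1 letters GTTAATNAT in Gm32624 as the longer run, and the KLF letters CCACACCC in 8430430B14Rik and Gm30624.
Gm26901: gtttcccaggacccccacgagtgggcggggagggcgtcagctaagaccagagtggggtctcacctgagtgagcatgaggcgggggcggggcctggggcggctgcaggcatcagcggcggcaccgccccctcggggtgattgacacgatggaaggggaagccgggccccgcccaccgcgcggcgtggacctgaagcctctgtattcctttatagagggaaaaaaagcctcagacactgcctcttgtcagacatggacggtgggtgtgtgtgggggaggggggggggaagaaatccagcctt
8430430B14Rik: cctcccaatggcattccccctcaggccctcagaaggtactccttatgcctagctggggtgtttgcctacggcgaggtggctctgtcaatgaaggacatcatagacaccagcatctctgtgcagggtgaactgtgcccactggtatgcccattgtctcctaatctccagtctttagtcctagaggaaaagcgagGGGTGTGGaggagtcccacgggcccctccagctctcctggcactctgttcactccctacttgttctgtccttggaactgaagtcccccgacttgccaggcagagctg
Gm32624: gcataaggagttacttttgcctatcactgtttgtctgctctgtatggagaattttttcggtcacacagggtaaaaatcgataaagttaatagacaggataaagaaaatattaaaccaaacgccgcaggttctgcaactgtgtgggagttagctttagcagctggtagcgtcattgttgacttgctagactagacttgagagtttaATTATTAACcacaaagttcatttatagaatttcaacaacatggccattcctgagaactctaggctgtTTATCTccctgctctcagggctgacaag
1700007F19Rik: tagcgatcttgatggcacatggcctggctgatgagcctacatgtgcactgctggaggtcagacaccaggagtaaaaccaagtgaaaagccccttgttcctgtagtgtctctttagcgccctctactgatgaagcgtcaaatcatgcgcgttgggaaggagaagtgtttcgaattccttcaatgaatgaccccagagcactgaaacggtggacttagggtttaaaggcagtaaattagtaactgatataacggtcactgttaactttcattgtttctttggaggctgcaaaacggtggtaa
Gm30624: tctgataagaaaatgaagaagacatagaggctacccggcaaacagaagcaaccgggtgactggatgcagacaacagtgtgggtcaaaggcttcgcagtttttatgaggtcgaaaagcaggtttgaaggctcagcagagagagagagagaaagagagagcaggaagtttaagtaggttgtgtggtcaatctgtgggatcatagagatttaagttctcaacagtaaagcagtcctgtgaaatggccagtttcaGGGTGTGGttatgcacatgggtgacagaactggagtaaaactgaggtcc
Lncpint: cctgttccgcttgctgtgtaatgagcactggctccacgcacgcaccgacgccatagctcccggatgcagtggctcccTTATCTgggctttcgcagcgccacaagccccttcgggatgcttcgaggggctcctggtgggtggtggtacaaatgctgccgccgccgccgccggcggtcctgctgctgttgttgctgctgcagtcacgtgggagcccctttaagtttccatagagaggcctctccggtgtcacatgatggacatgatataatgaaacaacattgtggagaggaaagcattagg

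MicroRNA genes lay within 1 kb of 5 shared desert regions. Counted by region midpoint, the share was 0.154%, against 0.228% of the other shared regions more than 1 kb from a gene end. It was 0.183% for shared regions 1 to 100 kb outside genes. Mature sequences of the microRNAs beside the regions that differed most between the tissues are given from RefSeq. The seed, bases 2 to 8, is in capitals. The arms miR-29a-3p and miR-29b-3p share a seed, and this family is known for repressing collagen and other extracellular matrix transcripts.
mmu-miR-29a-3p: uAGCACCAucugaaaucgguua
mmu-miR-29b-3p: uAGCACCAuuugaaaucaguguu
mmu-miR-802-5p: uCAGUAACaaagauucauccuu
mmu-miR-802-3p: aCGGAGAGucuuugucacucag

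The SISC lists had 83443 and 93220 peaks and the LISC lists 91313 and 88739, and read depth is unknown. Regions within 1 kb of a gene end were called for all 7 epithelial marker genes in every library, and for 7 and 6 of 7 crypt stem cell markers in SISC and 5 and 6 in LISC. Of 8 immune markers, 2 and 2 had such a region in SISC and 1 and 1 in LISC, and of 8 stromal, endothelial and muscle markers 4 and 4 had one in SISC and 4 and 2 in LISC. The part that such cells had in the results below was not tested.

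The share of regions called in every library was lower in deserts than elsewhere. Of the 7762 desert regions of any library, 33.4% were called in all 4 (exact 95% interval 32.3 to 34.5), against 49.4% of the 109434 regions elsewhere. A further 9.51% of desert regions were called by the SISC libraries alone, in both of them (SISC-only), and 21.2% were LISC-only. Elsewhere the shares were 7.86% SISC-only and 9.39% LISC-only. These intervals treat regions as independent and cover counting error only.

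Among regions outside genes this share was lower at greater distance, with 66.2% within 1 kb of a gene end and 41.4% at 50 to 100 kb. Inside the deserts it was 37.3% at 100 to 200 kb, 30.4% at 200 to 500 kb and 20.7% beyond 500 kb. LISC-only regions showed the reverse, with 3.39% within 1 kb, 17.3% at 100 to 200 kb and 34.3% beyond 500 kb, whereas SISC-only regions stayed between 8.80% and 9.95% in the 3 desert bins. The shared regions made up 65.2% and 55.9% of the desert regions called in the SISC libraries and 48.8% and 46.7% of those called in the LISC libraries. Desert regions were 5.21% and 5.21% of all regions of the SISC libraries and 6.30% and 6.63% of those of the LISC libraries.

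**Figure D1:**
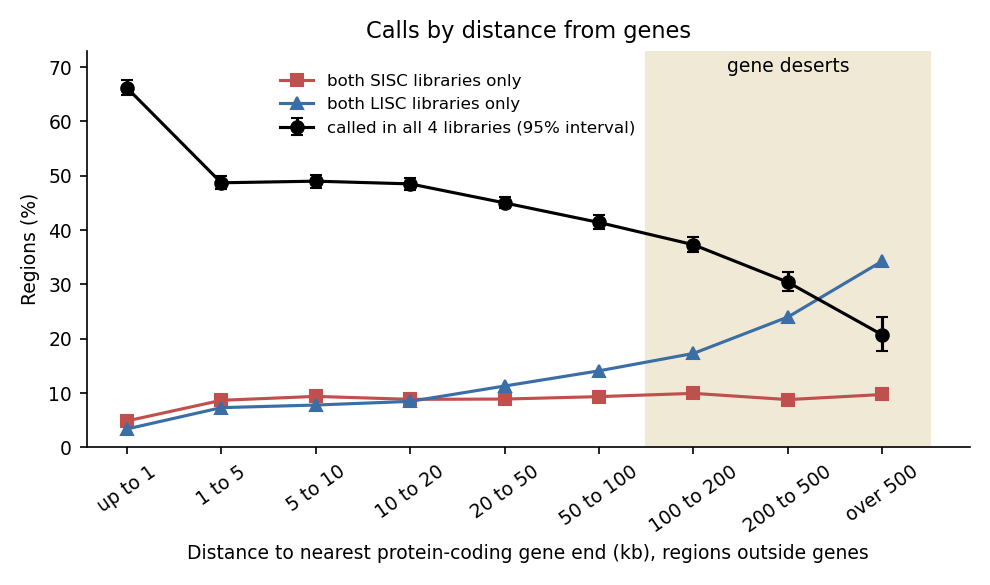
Share of regions outside genes (y axis, percent) by distance to the nearest protein-coding gene end (x axis, kb), for regions called in both SISC libraries only, in both LISC libraries only, and in all 4 libraries with exact 95% intervals. In the shaded desert bins the share called in all 4 libraries is 37.3%, 30.4% and 20.7%, while the LISC-only share is 17.3%, 24.0% and 34.3%.

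The shared desert regions were a median of 174 kb from the nearest gene end, with the nearest at 100 kb and the farthest at 1836 kb. Of them, 1009 (38.9%) lay beyond 200 kb, 134 beyond 500 kb and 20 beyond 1000 kb. The merged regions had a median width of 858 bp, from 235 to 2783 bp. Between 92.6% and 96.2% of them held a single peak in any given library.

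Strength was measured as the authors' −log10 q of the strongest peak in the region, turned into a rank percentile within each library among the 56633 shared regions, the same set in every library. The median −log10 q of the shared desert regions was 41.6 and 44.6 in SISC and 51.8 and 39.8 in LISC, against 64.1 and 68.5 in SISC and 68.8 and 45.9 in LISC for the other shared regions. Their median percentile was 37.2 and 35.5 in SISC and 41.7 and 45.4 in LISC. They ranked lower than the other shared regions in every library, with differences of −13.5 and −15.2 points in SISC and −8.78 and −4.86 points in LISC. The mean difference of −10.6 ± 4.69 points (SD, n = 4 libraries) gave a p of 1 in 8 in a two-sided exact sign-flip permutation test, the smallest that 4 libraries allow. Ranked by the authors' fold enrichment in place of −log10 q, the mean difference was 0.331 points, so the direction depends on the measure.

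Gene ends held the strongest shared regions. Shared regions within 1 kb of a gene end had median percentiles of 83.6 and 83.2 in SISC and 82.6 and 82.0 in LISC, whereas those 1 to 100 kb out stood at 44.0 and 44.6 in SISC and 43.0 and 43.5 in LISC. Against other shared regions more than 1 kb from a gene end, the shared desert regions differed by −5.87 and −7.63 points in SISC and by −1.56 and 2.11 points in LISC, a mean of −3.24 ± 4.38 (SD, n = 4, exact p = 0.375). Only 35 of the shared desert regions (1.35%) had a mean percentile of at least 90, against 9.92% of the other shared regions and 2.76% of those more than 1 kb from a gene end. The called width was 0.932 ± 0.0331 times that of the other shared regions (SD, n = 4 libraries, exact sign-flip p of 1 in 8) and 1.08 ± 0.0392 times that of the ones beyond 1 kb.

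Within the shared desert regions the tissues differed in rank, with LISC higher. The median percentile of the libraries averaged 36.4 ± 1.18 for SISC and 43.5 ± 2.63 for LISC (SD, n = 2 libraries per tissue), a difference of −7.16 points, SISC minus LISC. With ranks from fold enrichment the difference was −3.77 points. Both SISC libraries lay below both LISC libraries in the ranks by −log10 q, and an exact permutation of 2 against 2 libraries gave p = 0.333, the smallest it allows, so the design cannot reach 0.05. The same difference was 1.0 point for shared regions 1 to 100 kb from a gene end and −1.0 point for those inside gene bodies. At 50 to 100 kb alone, the median percentiles were 40.7 and 41.2 in SISC and 43.2 and 46.2 in LISC. Both SISC libraries thus lay below both LISC libraries there too, so this order was not particular to the deserts.

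Single regions were called higher in a tissue when its lower percentile exceeded the other tissue's higher one by at least 10 points. By this rule 281 shared desert regions (10.8%, exact 95% interval 9.67 to 12.1) were higher in SISC, against a background of 10.0% over all 56633 shared regions. In the other direction 518 (20.0%, 18.5 to 21.6) were higher in LISC, against a background of 11.2%. The SISC share was near its background over all shared regions, and the LISC share was above it. That background includes the regions within 1 kb of a gene end, which seldom passed the margin. The remaining 1793 regions (69.2%) met neither condition. Both intervals treat regions as independent, although many lay close together, and they leave out the spread between libraries. Shared regions outside genes and 1 to 100 kb from a gene end were higher in SISC in 12.2% and in LISC in 12.3%. Set beside these, the desert share was lower for SISC and higher for LISC. Shared regions inside gene bodies were higher in SISC in 10.8% and in LISC in 13.8%. Those within 1 kb of a gene end were so in 5.08% and 2.54%.

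The share higher in LISC was greater at each step in distance beyond 10 kb. It was 10.3% at 5 to 10 kb, 13.6% at 20 to 50 kb, 16.7% at 50 to 100 kb, 18.2% at 100 to 200 kb, 22.3% at 200 to 500 kb and 26.1% beyond 500 kb, where 35 of 134 regions were higher in LISC. The share higher in SISC was 10.7%, 10.9% and 11.9% in the 3 desert bins. With ranks taken from fold enrichment, 12.2% of the shared desert regions were higher in SISC and 15.9% in LISC, against backgrounds of 9.72% and 9.45%, and 346 of the 518 LISC calls and 219 of the 281 SISC calls were made by both measures. LISC-only calls were likewise more frequent at greater distance, as given above, and the LISC lists held a larger share of desert regions. The authors' median fold enrichment over all peaks was 5.76 and 4.92 in SISC and 5.56 and 4.38 in LISC, and the part of such differences between lists was not tested.

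**Figure D2:**
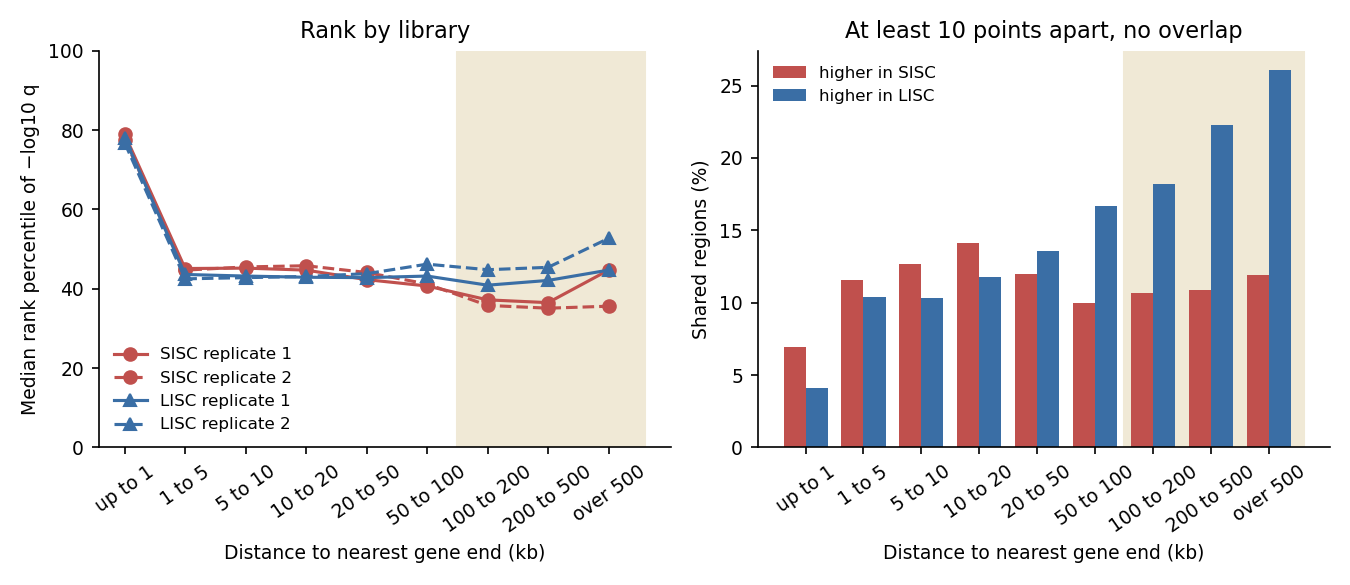
Left, median rank percentile of −log10 q (y axis) of shared regions outside genes by distance to the nearest gene end (x axis, kb), 1 line per library. Right, share of those regions (y axis, percent) that ranked higher in SISC or in LISC by at least 10 points without overlap; in the shaded desert bins the LISC bars reach 18.2%, 22.3% and 26.1%.

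**Figure D3:**
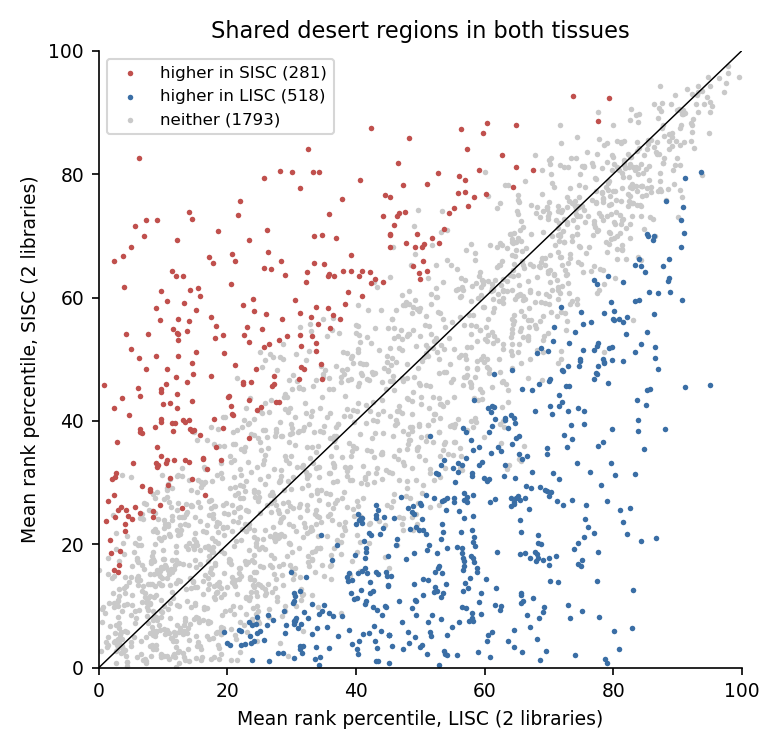
Mean rank percentile of each of the 2592 shared desert regions in the 2 SISC libraries (y axis) and the 2 LISC libraries (x axis), with the diagonal marking equal ranks. The 281 regions higher in SISC lie above the diagonal and the 518 higher in LISC below it, and regions of either kind occur from low to high ranks.

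Regions with the widest margins ranked far apart in the tissues although called in all 4 libraries. The widest margin towards SISC was at chr5:99632344-99634442, in the desert between Rasgef1b and Vamp9, with −log10 q of 227 and 182 in SISC and 15.7 and 5.94 in LISC. Its called width was 2049 and 2095 bp in SISC and 282 and 458 bp in LISC. The next was at chr18:39651298-39652298, 122 kb from Pabpc2 in the desert beside Nr3c1, which encodes the glucocorticoid receptor, with −log10 q of 119 and 125 in SISC and 10.3 and 11.3 in LISC. The tissues did not overlap in either case.

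A region 241 kb from Sall1, a zinc-finger transcription factor gene, at chr8:89284644-89285563 had −log10 q of 133 and 135 in SISC and 7.79 and 13.3 in LISC. The fifth region of this kind, chr16:5515683-5516619 in the desert between Eef2kmt and Rbfox1, a splicing factor gene, had 123 and 108 in SISC and 6.64 and 10.8 in LISC. All 4 shared desert regions there were higher in SISC, and that desert held 8 SISC-only and 0 LISC-only regions over 100 kb from a gene end.

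The fourth lay in the desert between Runx1, a transcription factor gene of blood and epithelia, and Setd4, at chr16:93367485-93369003. It had −log10 q of 142 and 119 in SISC and 6.07 and 11.9 in LISC, and ended 717 bp before the hairpin of Mir802 (chr16:93369720-93369816), whose arms are printed above. A neighbouring shared region that covered the hairpin itself, chr16:93369460-93370121, had 33.7 and 41.5 in SISC and 26.6 and 36.1 in LISC, and met neither condition. Of the 2, only the region before the hairpin passed the 10-point margin.

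Towards LISC, the widest margin was at chr1:47545340-47546238, 620 kb from Slc39a10, a zinc transporter gene, with −log10 q of 7.40 and 10.2 in SISC and 219 and 114 in LISC. A region 115 kb from Cd180 in the desert beside Pik3r1, which encodes a regulatory subunit of phosphoinositide 3-kinase, had 6.23 and 4.64 in SISC and 161 and 132 in LISC (chr13:102578336-102579381). Called widths there were 324 and 208 bp in SISC and 1046 and 1009 bp in LISC. In both, the tissues did not overlap and SISC still had a peak, where the lowest −log10 q of any shared desert region was 2.90 and 3.26 in SISC and 3.08 and 3.24 in LISC.

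Others of this kind lay beside Suclg2 and Fgf9. The region 184 kb from Suclg2, a gene of mitochondrial metabolism, at chr6:95902146-95903237 had −log10 q of 7.40 and 4.17 in SISC and 169 and 122 in LISC. The region 161 kb from Fgf9, a fibroblast growth factor gene, at chr14:58273516-58274722 had 6.81 and 8.38 in SISC and 138 and 106 in LISC. The tissues did not overlap in either. All these regions were picked for their margin, so their separation is a description.

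**Figure D4:**
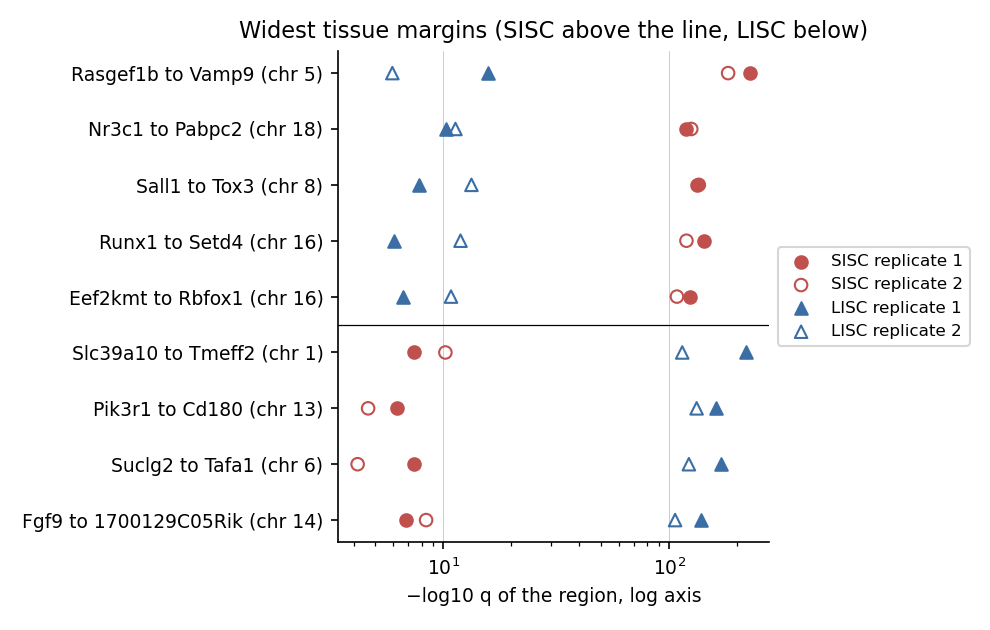
Authors' −log10 q (x axis, log scale) in each library of the 5 shared desert regions with the widest margin towards SISC (above the line) and 4 towards LISC (below it), named by the flanking genes. In the first region SISC libraries stand at 227 and 182 and LISC libraries at 15.7 and 5.94, and in none of the regions plotted do the tissues overlap.

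Neighbouring genes left 1393 gaps of at least 200 kb on chromosomes 1 to 19, and 565 of them (40.6%) held a shared desert region. Regions within 100 kb of a gene end were not counted in any desert, here or below. Over the 680 Mb that lay more than 100 kb from a gene in these gaps, the density was 3.81 shared regions per Mb. It was 1.63 per Mb in gaps of at least 1 Mb and 7.37 per Mb in shorter ones. The regions were unevenly spread, with 74 deserts of at least 10 regions holding 1104 of them (42.6%) and 165 deserts holding 1 region. In 529 deserts no library had a region more than 100 kb from a gene end. The longest desert without a shared region at that distance ran for 4542 kb between the protocadherin genes Pcdh20 and Pcdh9, with 0 SISC-only and 2 LISC-only regions there.

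The desert with most shared regions ran for 440 kb on chromosome 6 between Klf14, a Krüppel-like transcription factor gene, and Mkln1, and held 34. Its median percentiles were 46.3 and 47.4 in SISC and 43.0 and 41.0 in LISC. Within it, 15 regions followed each other with gaps of at most 10 kb over 51.0 kb (chr6:31114470-31165452), the longest such run found. The strongest of the desert, chr6:31164049-31165452, had −log10 q of 429 and 274 in SISC and 444 and 183 in LISC, with overlapping tissues.

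Both directions occurred inside this desert, with 4 regions higher in SISC and 5 higher in LISC. The region at chr6:31145703-31146190 had 93.4 and 80.5 in SISC and 20.3 and 8.51 in LISC, whereas the one at chr6:31096626-31097506 had 2.90 and 7.55 in SISC and 49.1 and 45.6 in LISC. Mir29a lay 165 bp and Mir29b-1 528 bp from the shared region at chr6:31061551-31062495, which had 65.7 and 90.5 in SISC and 193 and 94.0 in LISC and was called higher in LISC by percentile. The smallest LISC value was there close to the largest SISC value, but −log10 q also depends on library depth. By percentile the region stood at 51.5 and 60.7 in SISC and 79.5 and 73.7 in LISC.

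Next in number were the deserts between Tbc1d1 and Gm38457 with 26 shared regions, Cd83 and Jarid2 with 24, Bcl11a and Fancl with 24, and Serp2 and Lacc1 with 23. Jarid2 encodes a cofactor of Polycomb repressive complex 2, and Bcl11a a zinc-finger transcription factor known from blood and brain. Deserts between Ccer1 and Atp2b1, Zfp608 and Gramd3, and Nmbr and Cited2 held 22 each, and those between Enc1 and Arhgef28 and between A1bg and Myc 21 each. In the Serp2 desert 2 regions were higher in SISC and 8 in LISC, while in the Ccer1 desert, beside the plasma membrane calcium pump gene Atp2b1, 5 were higher in SISC and 3 in LISC.

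**Figure D5:**
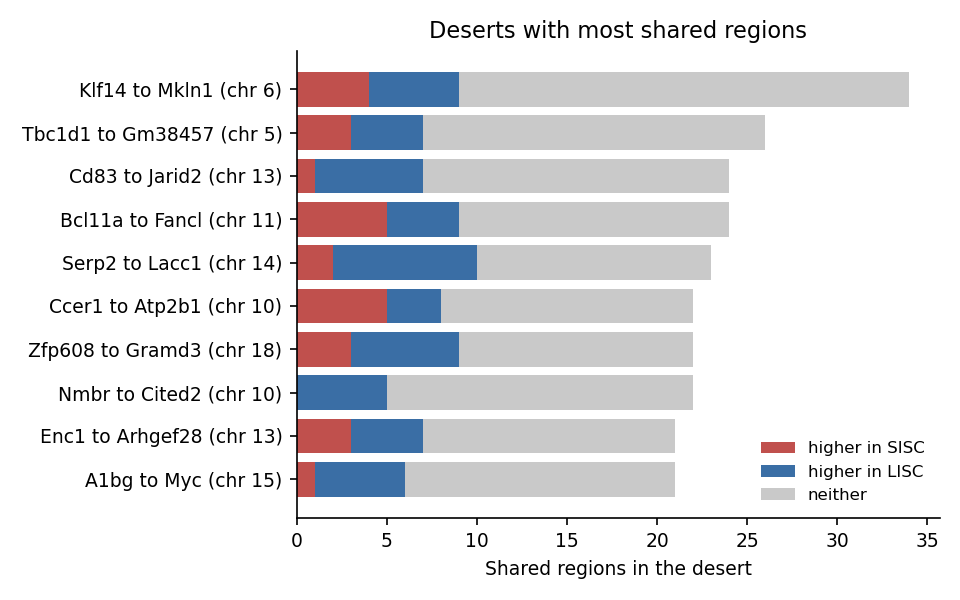
Number of shared regions (x axis) in the 10 deserts that held most, named by the flanking genes and chromosome, split into regions higher in SISC, higher in LISC and neither. The Klf14 to Mkln1 desert holds 34, of which 4 are higher in SISC and 5 in LISC, and regions in neither class are the most numerous in all 10.

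Of the 191 deserts with at least 5 shared regions, 44 had more regions higher in SISC, 107 had more higher in LISC and 40 had equal numbers, while 80 held both kinds. Over all shared desert regions, 10.8% were higher in SISC and 20.0% in LISC. The deserts with most regions higher in SISC were those between Fut8 and Gm6657, with 6 of 13 higher in SISC and 1 in LISC, and between Bcl2l11, a pro-apoptotic gene, and Spdye4c, with 6 of 15 and 1. Besides the Serp2 desert, those between Zeb2 and Acvr2a and between Cdh26 and 4930591A17Rik had 7 regions higher in LISC each, with 2 and 4 higher in SISC. In the desert between Phlda1 and Krr1, 0 of 13 were higher in SISC and 6 in LISC, with median percentiles of 28.6 and 40.0 in SISC and 56.9 and 71.3 in LISC.

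Deserts beside transcription factors of the intestine held a shared region in a larger share than deserts in general. Of the 29 deserts flanking genes of that list, 21 (72.4%) held a shared region, at 14.4 regions per Mb, against 40.6% and 3.81 per Mb over all deserts. Desert length was not matched in this or the next lists, and density was 1.63 per Mb in gaps of at least 1 Mb and 7.37 in shorter ones. The part of length in these differences was not tested. The list's 176 regions were higher in SISC in 10.2% and in LISC in 18.8%, near the 10.9% and 20.0% over all deserts. Those 2 shares are also the background for the counts per gene given below. The deserts on either side of Sox9, a factor of crypt base and Paneth cells, together held 29 shared regions, of which 2 were higher in SISC and 4 in LISC. The strongest of them, chr11:113060489-113061600, lay 184 kb from Slc39a11 and had −log10 q of 258 and 203 in SISC and 221 and 141 in LISC.

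The desert between Klf5, a factor of proliferating crypt cells, and Klf12 held 19 shared regions, with 0 higher in SISC and 5 in LISC. Maf, which encodes a factor of the enterocyte programme, had 18, with 5 higher in SISC and 2 in LISC. The deserts on either side of Gata6, an endodermal GATA factor gene, held 16 regions, with 7 higher in SISC and 1 in LISC. Gata6 was named after its values were seen. At chr18:11425524-11426233, 207 kb from Rbbp8 in the desert between Gata6 and Rbbp8, −log10 q was 134 and 85.9 in SISC and 18 and 19.3 in LISC. At chr18:11387390-11388389 in the same desert it was 14.0 and 33.6 in SISC and 95.1 and 48.8 in LISC. The regions of this desert thus did not all differ the same way.

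For stem cell and Wnt pathway genes, 11 of 20 deserts (55.0%) held a shared region, at 11.5 per Mb. Myc, a growth regulator downstream of Wnt signalling, had 39 in the deserts on both sides, the most of any list gene, with 2 higher in SISC and 8 in LISC. The region at chr15:63193631-63194704, 582 kb from Gsdmc in the desert between Myc and Gsdmc, had −log10 q of 162 and 116 in SISC and 12.2 and 19.3 in LISC. Another at chr15:61877415-61878059, 108 kb from the nearest gene end in the desert between A1bg and Myc, had 35.7 and 32.7 in SISC and 115 and 79.5 in LISC. Lrig1, which encodes a stem cell marker that restrains ERBB signalling, had 15 shared regions, and Ctnnb1, the β-catenin gene, had 13. The strongest beside Ctnnb1, chr9:120775794-120777327, had 334 and 326 in SISC and 448 and 216 in LISC, with overlapping tissues.

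Of the 8 deserts beside immediate early and stress response factors, 7 (87.5%) held a shared region, at 20.9 per Mb. The share was 78.6% with a limit of 50 kb and 80.0% with one of 200 kb, where intestinal transcription factors stood at 79.5% and 80.0%, so the order of these lists depends on the limit. Klf6, a Krüppel-like factor gene, had 20, with 2 higher in SISC and 7 in LISC. At chr13:4771247-4772541, 163 kb from Akr1e1 in the desert between Akr1e1 and Klf6, −log10 q was 59.0 and 56.2 in SISC and 441 and 234 in LISC. Jun, which encodes a subunit of AP-1, had 13, and Btg1, an antiproliferative gene, had 8. The region at chr4:95160891-95162361, 109 kb from Jun, was among the strongest in all 4 libraries, with 445 and 364 in SISC and 430 and 230 in LISC.

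For growth factor, BMP, Notch and hedgehog genes, 14 of 27 deserts (51.9%) held a shared region, at 7.75 per Mb. With a limit of 200 kb the share was 33.3%. Of their 69 regions, 8.70% were higher in SISC and 27.5% in LISC, against 10.9% and 20.0% over all deserts. Fgf9 had 15, with 2 higher in SISC and 5 in LISC, and Fgfr2, a fibroblast growth factor receptor gene, had 14. Bmp2 and Shh, which encode secreted signals of the BMP and hedgehog pathways, had 7 each, all of them either higher in LISC (4 and 3) or in neither class. Bmp4 of the same list went the other way, with 5 regions, 2 higher in SISC and 0 in LISC.

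Genes of the nervous system gave a mixed picture. Of 42 deserts beside neural development transcription factors, 23 (54.8%) held a shared region, but the density of 3.48 per Mb was near that of all deserts. Bcl11a had 24, Bcl11b 11 and Sox5 8. Of 62 deserts beside neuronal adhesion and synapse genes, 19 (30.6%) held one, at 0.777 per Mb, below the density of all deserts. Here too desert length was not matched. Slit2, an axon guidance gene, had 11, and Cdh8 and Tenm2, adhesion genes, had 9 each.

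The shared desert regions with the highest mean percentile had large values in every library, as the choice requires, and so near the top of the scale a 10-point margin has little or no room. The first, chr15:68362409-68363771, lay 104 kb from Zfat, a zinc-finger gene, and had −log10 q of 576 and 379 in SISC and 588 and 280 in LISC. The second, 112 kb from Nfia, a transcription factor gene, had 482 and 344 in SISC and 686 and 382 in LISC (chr4:97465609-97466655). The next, 237 kb from the neural gene Myt1l, had 551 and 336 in SISC and 491 and 345 in LISC (chr12:29290403-29291471). The other 7 had mean percentiles from 93.7 to 96.2 and lay beside Pcmtd1, Atp2b1, Chordc1, Jun, Tbl1xr1, Tcte2 and Atp10a.

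The 5 regions farthest from genes ran from weak to strong. The farthest, chr14:81858389-81859268, lay 1836 kb from Olfm4, a secreted glycoprotein gene known as a stem cell marker of the small intestine, and had −log10 q of 192 and 112 in SISC and 93.7 and 41.6 in LISC. Another, 1800 kb from Olfm4, had 6.81 and 12.7 in SISC and 23.4 and 23.6 in LISC and was called higher in LISC (chr14:81822655-81823543). At 1584 kb from Slc10a2, the ileal bile acid transporter gene, the region at chr8:6688443-6689541 had 108 and 114 in SISC and 134 and 124 in LISC. Between Dsel and Cntnap5a, the region at chr1:113412221-113413280 had 64.5 and 17.6 in SISC and 51.0 and 71.1 in LISC, and the one at chr1:114152383-114153564 had 152 and 156 in SISC and 42.2 and 52.5 in LISC. Of the 5, 1 was thus called higher in SISC, 1 in LISC and 3 in neither.

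The widest shared desert region, 2783 bp at chr17:83997857-84000639, held the 8430430B14Rik window printed above and had −log10 q of 287 and 238 in SISC and 355 and 205 in LISC. The next, 2581 bp at chr5:119085335-119087915 between Med13l and Tbx3, had 121 and 112 in SISC and 116 and 53.4 in LISC. At the 100 kb limit, the 5 regions just inside it had mean percentiles of 26.4 to 77.7, and the 5 just outside 11.4 to 80.3.

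Shared desert regions lay close together. The median distance to the nearest other one was 9500 bp, and 1316 (50.8%) had another within 10 kb. For regions higher in SISC with such a neighbour, the nearest was also higher in SISC in 32 of 130 cases (24.6%), against 8.68% for the other regions. For regions higher in LISC the nearest was also higher in LISC in 63 of 246 cases (25.6%), against 17.1%. A SISC-only region lay within 50 kb of 51.6% of the regions higher in SISC, 30.7% of those higher in LISC and 43.2% of the rest. A LISC-only region lay within 50 kb of 38.8% of the regions higher in SISC, 67.4% of those higher in LISC and 55.1% of the rest. Neighbours share their library and desert, so these shares are descriptions.

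Peak summits of the same region were compared between libraries. Between libraries of the same tissue the median offset was 18 to 21 bp in the shared desert regions and 13 to 15 bp in the other shared regions. Between SISC and LISC libraries it was 20 to 25 bp in the shared desert regions and 14 to 18 bp in the others. Over all pairs of libraries, 67.2% to 74.0% of the shared desert regions had summits within 50 bp of each other, against 73.5% to 79.2% of the other shared regions.

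Non-coding genes were annotated at many shared desert regions. Of them, 31.4% (exact 95% interval 29.7 to 33.3) lay inside or within 1 kb of a non-coding gene, against 15.9% of the other shared regions more than 1 kb from a gene end and 25.7% of shared regions 1 to 100 kb outside genes. In the deserts the share was 27.0% for SISC-only and 21.2% for LISC-only regions. Most of the annotated genes were lncRNAs, which accounted for 30.0% of the shared desert regions.

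An lncRNA promoter window was overlapped by 92 shared desert regions (3.55%), with 94 genes matched in the RefSeq table. The same share of the other shared regions was not determined. Median percentiles of the 92 regions were 47.7 and 47.6 in SISC and 49.1 and 53.9 in LISC. Those of the shared desert regions on no window were 36.8 and 35.3 in SISC and 41.3 and 45.1 in LISC. Of the 92, 12 (13.0%) were higher in SISC and 8 (8.70%) in LISC, against 10.8% and 20.4% of those on no window. The difference between these subsets was not tested, since they were formed after the values were seen.

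The region over Gm26901, chr1:7396949-7398675, had −log10 q of 430 and 334 in SISC and 520 and 298 in LISC, and its window held 65.7% GC. The region over Gm32624, chr16:86816589-86817727, had 295 and 194 in SISC and 53.0 and 50.9 in LISC, with 40.0% GC in the window. Over 1700007F19Rik the region at chr3:58163398-58164316 had 115 and 114 in SISC and 55.1 and 41.6 in LISC. Both were higher in SISC without overlap. Over Gm30624, in the Phlda1 desert, the region at chr10:111684317-111685397 had 12.6 and 14.0 in SISC and 86.6 and 58.3 in LISC. The region over Lncpint, chr6:31216089-31218646, had 129 and 139 in SISC and 135 and 81.8 in LISC and met neither condition.

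The 94 windows had a median GC content of 50.2% and an observed over expected CpG ratio of 0.308, close to the 48.7% and 0.248 of 9197 other lncRNA promoters and below the 56.7% and 0.595 of 16457 protein-coding promoters. Where a gene had several windows, the 94 took the one overlapping a shared region most, and the other sets the first listed. The other sets were not limited to open promoters or to deserts. Motifs were searched on both strands, and each match is a description of the letters only. The GATA letters AGATAA stood in 16.0% of the 94 windows, against 14.1% of the other lncRNA promoters and 11.4% of all 25748 promoters of the table. In the same order, TCF/LEF (ATCAAAG) was held by 8.51%, 4.52% and 3.76%, and HNF1 (GTTAATNAT) by 3.19%, 0.924% and 0.835%. KLF (CCACACCC) was held by 6.38%, 3.4% and 3.58%, and the CDX letters by 6.38%, 3.58% and 2.79% (TTTATGG) and by 7.45%, 6.00% and 4.72% (TTTATTG). The shares for AP-1 (TGANTCA) were 8.51%, 9.46% and 7.99%, and those for ETS (CCGGAAGT) 3.19%, 1.63% and 4.08%, so for both the order depends on the promoters set beside them. FOXA (TGTTTAC) was held by 2.13%, 4.74% and 3.60%, and GRHL (AACCGGTT) by 1.06%, 0.0979% and 0.155%. NFY (CCAATCA) was held by 5.32%, 5.71% and 8.07%, and NRF1 (GCGCANGCG) by 1.06%, 2.12% and 6.54%. The CTCF motif matched 0 of the 94 windows, 0.587% of the other lncRNA promoters and 0.567% of all promoters, and HNF4 (CAAAGTCCA) 0 of 94, 0.609% and 0.493%. Motif letters marked in the printed windows do not overlap each other, and with 94 windows a share of 1.06% is a single window.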

How the data were processed

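ATAC-seq peak lists of 2 SISC and 2 LISC libraries were used, 1 list per library. Per the labels' protocols, 50000 cells were lysed per library and the DNA was amplified for 10 cycles. The submitters' processing notes name the mm10 build and the tools MACS2 2.2.7.1, Bowtie2 2.3.4.1, cutadapt 3.4, bedtools and Picard. Their order, the calling threshold and any Tn5 shift were not given in the sources used here. Each deposited peak has a fold enrichment (a ratio) at its summit, a −log10 p and a −log10 q, all the authors' values, and a deposited score derived from the −log10 q. The −log10 p, the −log10 q and the score scale with the sequencing depth of the list's library, which is unknown. The −log10 q, and as an alternative the fold enrichment, were used to rank regions within a library.

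Peaks overlapping by 1 bp were merged, and genes came from the RefSeq table of GRCm38.p6, which has the mm10 coordinates and carries no strand, so distances run to the nearer gene end. The table holds 20665 protein-coding genes on chromosomes 1 to 19. The desert regions and the 6 gene lists (270 genes) were chosen with earlier results of these data known. Named are the 10 regions with the highest mean percentile, the 5 with the widest margin per tissue, the 5 farthest from genes, the 2 widest, the 10 deserts with most regions, and up to 3 genes per list with most regions beside them; 1 region that this rule names is not reported here. Other genes, deserts and regions, the promoter windows and the miRNAs were chosen after their values were seen. Planned sequence windows around summits were not analysed here, because no genome was used, and RefSeq promoter windows took their place. Shares carry exact (Clopper-Pearson) 95% intervals. Merging, distances and margins were tested on simulated data. Calculations were made in Python 3.11.15 with scipy 1.17.1, pandas 2.3.3 and numpy 2.4.6, and plots with matplotlib 3.10.9.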

Additional observations from a re-analysis of the deposited data

Results flagged for a closer look

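The X chromosome was outside the chromosomes the rule covers. It held 76 regions that were called in all 4 libraries and met the same distance rule, out of 254 desert regions and 1146 shared regions there, and they enter no comparison above.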

How the results depend on the processing

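Of 148 values recomputed under an alternative, 120 were the same, 26 moved and 2 reversed. A count was the same within a set factor of the reported count. A share was the same inside the exact interval of the reported share. Rank differences and the width ratio were judged by direction only. The rank difference from the other shared regions became 0.331 points when ranks came from fold enrichment, and the width ratio became 1.08 against shared regions more than 1 kb from a gene end, a comparison added after seeing the data; the cause was not tested. Where peaks had to cover 50% of a region, the share of desert regions called in all 4 libraries was 24.3%, with 155 regions higher in SISC and 295 in LISC. Over 50 kb from genes there were 5012 regions in 1109 deserts, a share of 36.8%, with 523 higher in SISC and 921 in LISC; over 200 kb there were 1009 in 263 deserts, a share of 28.7%, with 111 higher in SISC and 230 in LISC. The share of the regions higher in LISC was 15.6% with 50% cover, 18.4% over 50 kb and 22.8% over 200 kb. A margin of 0 points gave 597 higher in SISC and 1002 in LISC, and a margin of 20 points gave 122 and 286. At a margin of 0 the SISC share of 23.0% was below the 30.5% of all shared regions, and so it was without LISC replicate 1 (15.0% against 17.0%) and without SISC replicate 1 (17.0% against 17.4%). The LISC share was above that of all shared regions at every setting run. Leaving out each library in turn gave 2716 to 2878 regions, a share of 37.2% to 37.9%, 415 to 488 higher in SISC, 656 to 877 higher in LISC (24.0% to 31.6% of the regions, against 14.6% to 16.7% of all shared regions), and a SISC minus LISC rank difference of −7.81 to −4.84 points. With ranks from fold enrichment that difference was −3.77 points. Over 50 kb and over 200 kb, the share of deserts with a shared region ran from 33.3% to 79.5% and from 30.8% to 80.0% over the 6 gene lists; the growth factor list stood at 63.9% and 33.3%. Same-numbered libraries were not paired, since their deviations correlated at −0.0646 over the shared desert regions. With the replicate number as a block, 340 regions were higher in SISC and 598 in LISC, and the rank difference was −7.16 points. The alternative of 150 bp summit windows was not run. With no read counts, a region absent from a list was not called, which does not show it to be closed.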
